A study of Homo sapiens with 8 samples.

Results

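The matricellular genes THBS1, THBS2, THBS3, TNC, TNXB, POSTN, SPARC, SPP1 and FN1 were examined in fibroblasts exposed to medium from cells entering senescence. These 9 genes of the 27696 in the count table are defined by a list of names rather than by a threshold on measured values, and the list was drawn up with earlier results of these data known. With medium collected at day 10 of senescence induction, the level of TNC (tenascin-C) was 2.69 times that with day 0 medium and was higher in both experiments. POSTN (periostin) was 2.53 times its day 0 level with day 4 medium and 2.88 times with day 7 medium. THBS1 (thrombospondin-1) was lower than at day 0 on all 3 later days in both experiments, with fitted log2 fold changes between -0.65 and -0.43. None of these differences passed edgeR's quasi-likelihood test after Benjamini-Hochberg adjustment over all 13798 genes tested. That test called 0 genes at day 4, 0 at day 7 and 40 (0.29%) at day 10. DESeq2 called TNC at day 10 (adjusted p of 0.0169), beside 2.17% of its genes. DESeq2 with the experiment as a further term was added after the data were seen. It called THBS1 at day 4 (0.00520) and day 10 (0.00807), beside 1.55% and 6.66% of its genes, and did not call TNC.

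The RNA came from IMR90 cells, a strain of primary human lung fibroblasts of embryonic origin, which did not carry the RAS construct. These recipient cells spent 3 days in conditioned medium taken from IMR90 ER:RAS fibroblasts, whose RAS oncoprotein is fused to a part of the estrogen receptor and becomes active when 4-OHT (4-hydroxytamoxifen) is added. The groups D0, D4, D7 and D10 are named after the day of 4-OHT induction at which the medium was taken, 0, 4, 7 or 10, and D0 medium also came from ER:RAS cells. Each group had 2 libraries of poly(A) RNA, 1 from each of 2 independent experiments, so p-values measure the spread between 2 cultures of a single cell strain. Medium from cells of a single strain was used, and any 4-OHT left in it and the factors the cells secreted cannot be told apart in this design. The comparisons ask how media from the early, middle and late phases of the senescence-associated secretory phenotype (SASP), the mixture of proteins that senescent cells release, relate to the expression of these genes in normal fibroblasts.

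Matricellular proteins are secreted into the extracellular matrix, where they bind cell surface receptors, growth factors and structural proteins, and most of them modulate adhesion rather than bear load. Many are scarce in resting adult tissue and appear during development, wound healing and fibrosis. Tenascin-C and the thrombospondins can loosen cell adhesion, periostin supports collagen cross-linking and is a common marker of activated fibroblasts, and thrombospondin-1 can release TGF-β from its latent complex. Fibronectin, the product of FN1, is a structural glycoprotein that these proteins bind to and is included as their main matrix partner.

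The promoters of TNC, POSTN and THBS1 are shown because these were the members with the largest higher values at D10, D4 and D7 and the more abundant of the 2 members that were lower within both experiments on every day. RefSeq gave a single promoter for 7 of the 9 genes, and the stretch printed is the 250 bases before the start that RefSeq gives, 5′ to 3′ on the strand of the gene, on GRCh38.p14. GENCODE 29, used for the gene positions given with the results, places the starts of TNC and POSTN further upstream, so that 100 bases of the TNC stretch and 76 bases of the POSTN stretch lie inside those gene bounds, and 0 of the THBS1 stretch. It lies at chr9:115118158-115118407 on the minus strand for TNC, at chr13:37598769-37599018 on the minus strand for POSTN and at chr15:39580829-39581078 on the plus strand for THBS1. Capitals mark matches to 6 motifs searched on both strands, namely the TATA box (TATAAA), the AP-1 site (TGACTCA), the SMAD-binding element (CAGACA), the site of the Notch effector RBPJ (TGGGAA), the TEAD site (GGAATG) and the GC box (GGGCGG).
TNC: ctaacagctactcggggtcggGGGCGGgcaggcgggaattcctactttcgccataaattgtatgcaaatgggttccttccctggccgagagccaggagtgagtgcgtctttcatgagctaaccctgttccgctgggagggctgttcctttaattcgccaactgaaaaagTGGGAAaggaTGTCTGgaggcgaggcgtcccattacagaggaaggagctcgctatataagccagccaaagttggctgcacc
POSTN: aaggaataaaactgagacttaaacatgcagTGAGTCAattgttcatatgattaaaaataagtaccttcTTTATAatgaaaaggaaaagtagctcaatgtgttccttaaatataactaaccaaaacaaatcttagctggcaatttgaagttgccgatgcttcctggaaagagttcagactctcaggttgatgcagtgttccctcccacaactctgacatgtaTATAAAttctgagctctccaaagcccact
THBS1: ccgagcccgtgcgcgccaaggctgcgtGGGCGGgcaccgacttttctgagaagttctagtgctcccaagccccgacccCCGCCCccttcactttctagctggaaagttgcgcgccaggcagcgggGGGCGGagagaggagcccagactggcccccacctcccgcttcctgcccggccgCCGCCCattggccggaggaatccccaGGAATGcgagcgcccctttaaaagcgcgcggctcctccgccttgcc
Counted back from the RefSeq start, the TNC stretch held a GC box, an RBPJ match that began 81 bases before the start and a SMAD-binding element on the other strand that began 71 bases before it, the last 2 of these inside the GENCODE bounds. The POSTN stretch held an AP-1 match on the other strand, 220 to 214 bases before the start, a TATA box 29 to 24 bases before it, which is inside the GENCODE bounds, and a second TATA match on the other strand. The THBS1 stretch held 4 GC boxes and a TEAD match 46 to 41 bases before the start. Among 35116 promoters of the same length, 10.7% held the TATA box, 4.2% the AP-1 site, 13.6% the SMAD-binding element, 20.8% the RBPJ site, 11.9% the TEAD site and 42.6% the GC box, so matches to all but the AP-1 letters are common. The GC content was 54.8% for TNC, 36.4% for POSTN and 69.6% for THBS1, against a median of 58.0% over all promoters. A match is a description of letters and says nothing of binding in these cells.

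Expression is given as CPM, read counts divided by the TMM-normalized library size and scaled as edgeR does, with values for experiment 1 and then experiment 2. The libraries held 11708193 to 13395912 counts, and the 9 genes together took 1.34% to 2.51% of them. Of the 9 genes, 8 passed the filter on low counts, and SPP1 did not. All 8 fixed fibroblast marker genes were detected, with summed levels of 9486 to 45299 CPM, while the summed levels of the epithelial, endothelial and leukocyte markers reached at most 95.8, 122 and 3.85 CPM, with KRT5 and CD3E absent from the table, and the smooth muscle markers lay between 132 and 288 CPM. On each later day, 3 of 4 tested smooth muscle markers lay below both D0 libraries in both libraries, and the other was higher within both experiments. The median log2 fold change over the list was -0.87, -0.86 and -1.67 on the 3 days in turn. Of the 8 fibroblast markers, 5, 5 and 2 lay below both D0 libraries in both libraries, with medians of -0.47, -0.64 and -0.86. Among all genes, the share that lay below in this way was 12.6%, 15.2% and 16%. At D4 and at D7, 1 fibroblast marker was higher within both experiments. The medians had the same sign as THBS1, and the part of both marker lists in the results was not tested. The second D10 library stood apart, with a fibroblast marker sum of 9486 CPM against 29220 to 45299 CPM in the other 7 libraries and the lowest smooth muscle sum. Why it stood apart was not tested, and for D10 values that moved strongly without it both are given. The D4 and D7 tests also took their spread from all 8 libraries, this one included. In such bulk RNA, fewer cells that express a gene and less of its RNA per cell cannot be told apart.

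Per kilobase of exon, the 9 genes covered a very wide range, and FN1 had the highest median, although SPARC exceeded it in the first D0 and the first D4 library. The lowest, median and highest levels over the 8 libraries were 469, 738 and 1049 CPM per kb for FN1, 298, 655 and 965 for SPARC, and 121, 206 and 301 for THBS1. By CPM, which is not per length, FN1 ranked between 1st and 4th of all genes in every library. TNC followed with 42.7, 120 and 176 CPM per kb, POSTN with 8.50, 19.4 and 46.4, and THBS3 with 6.83, 8.21 and 9.58. The 3 scarcest genes were THBS2 with 0.0363, 0.213 and 0.783, SPP1 with 0.131, 0.202 and 0.230, and TNXB with 0.0293, 0.0760 and 0.139 CPM per kb. The ranges of THBS3 and THBS2 were separate, whereas those of all other neighbours in this order overlapped.

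**Figure D1:**
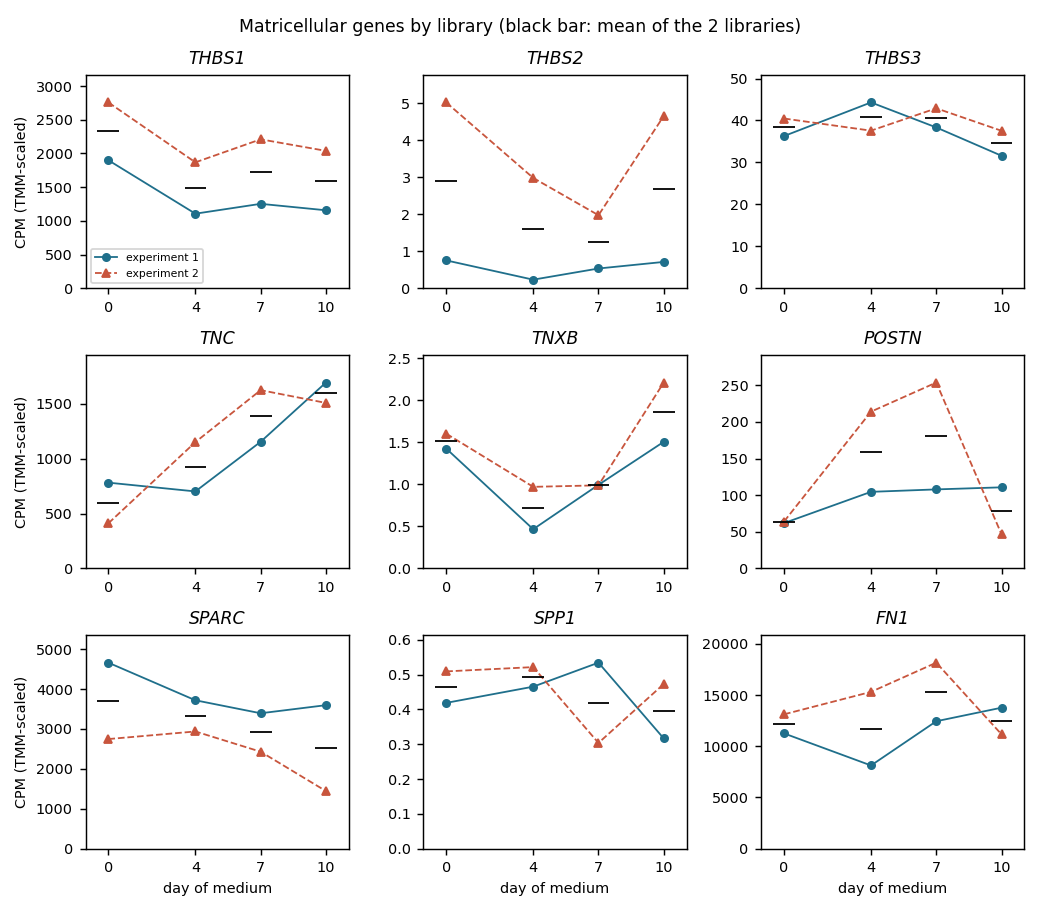
Expression of the 9 genes in each library, as TMM-scaled CPM on linear axes that start at 0, against the day of induction at which the medium was taken. Circles with solid lines are experiment 1, triangles with dashed lines are experiment 2 and black bars are the mean of the 2 libraries. TNC goes from 782 and 411 CPM at D0 to 1695 and 1510 CPM at D10, while POSTN in experiment 2 is at 254 CPM at D7 and at 46.5 CPM at D10.

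Tenascin-C, encoded by TNC at chr9:115019578-115118257 on the minus strand (GRCh38, GENCODE 29), is a hexameric glycoprotein induced at wound edges. Its level was 782 and 411 CPM at D0, 702 and 1152 CPM at D4, 1155 and 1626 CPM at D7, and 1695 and 1510 CPM at D10. Both D7 and both D10 libraries lay above both D0 libraries, and D4 overlapped with D0. The means were 597 ± 262, 927 ± 318, 1391 ± 333 and 1602 ± 131 CPM (SD, n = 2). Against D0, the log2 fold change of TNC was 0.64 at D4 (SE 0.40, 95% interval -0.29 to 1.56), 1.22 at D7 (SE 0.40, 0.29 to 2.15) and 1.43 at D10 (SE 0.41, 0.49 to 2.36). The edgeR adjusted p was 1.00, 0.783 and 0.252, from unadjusted values of 0.151, 0.0168 and 0.00813. Of all tested genes, 1.44% had a larger fitted rise at D7 and 1.97% at D10. Within experiment 1 the log2 change went from -0.16 at D4 to 0.56 at D7 and 1.12 at D10, and within experiment 2 it was 1.49, 1.98 and 1.88. The experiments thus differed in when TNC was higher, with D4 at the D0 level in the first and most of the difference already present at D4 in the second. DESeq2 called TNC at D10 at an adjusted p of 0.0169. When the experiment was added as a replicate block, the adjusted p was 0.0649 by edgeR and 0.111 by DESeq2. The D10 log2 fold change was 1.51 without the second D10 library, 1.03 without the second D0 library and 1.96 without the first.

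Tenascin-X, encoded by TNXB at chr6:32041153-32115334 on the minus strand, organizes collagen fibrils and its loss causes a form of Ehlers-Danlos syndrome. Few reads were counted for it, 17 and 22 reads in the D0 libraries, 6 and 13 reads in D4, 13 and 13 reads in D7, and 19 and 28 reads in D10. The sums were 39, 19, 26 and 47, with exact Poisson 95% intervals of 27.7 to 53.3, 11.4 to 29.7, 17.0 to 38.1 and 34.5 to 62.5, which cover counting error only. TNXB was thus lowest at D4 in experiment 1, while D4 and D7 had the same 13 reads in experiment 2. It was highest at D10 in both experiments, and D4 and D10 did not overlap. The log2 fold change was -1.06 at D4 (SE 0.50, 95% interval -2.22 to 0.10), -0.61 at D7 and 0.29 at D10 against D0, and 1.36 at D10 against D4 (SE 0.50, 0.21 to 2.51). None passed the edgeR test (adjusted p of 1.00, 1.00, 0.998 and 0.748). Of the exonic 50-base words of TNXB, 11.2% occur in other genes, mostly in the truncated copy TNXA, so its counts are uncertain. Without the second D10 library, the log2 fold change of D10 against D4 was 1.05 and that of D10 against D0 was -0.01.

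Periostin, encoded by POSTN at chr13:37562583-37598844 on the minus strand, is a protein with fasciclin domains that binds integrins and collagen. Its level was 61.8 and 63.9 CPM at D0, 105 and 214 CPM at D4, 108 and 254 CPM at D7, and 111 and 46.5 CPM at D10. All 4 libraries of D4 and D7 lay above both D0 libraries, whereas at D10 the experiments fell on opposite sides of D0. The means were 62.9 ± 1.46, 159 ± 77.4, 181 ± 103 and 78.6 ± 45.4 CPM (SD, n = 2). The log2 fold change of POSTN was 1.34 at D4 (SE 0.55, 95% interval 0.07 to 2.61), 1.52 at D7 (SE 0.55, 0.25 to 2.80) and 0.32 at D10 (SE 0.54, -0.93 to 1.57). The edgeR adjusted p was 1.00, 0.910 and 0.998, and the unadjusted p 0.0406, 0.0247 and 0.569. Of all tested genes, 0.812% had a larger fitted rise at D4 and 0.833% at D7. In experiment 1 the log2 change of POSTN was nearly level from D4 on, at 0.76, 0.80 and 0.84. In experiment 2 it was 1.74 and 1.99 at D4 and D7 and then -0.46 at D10. From D4 to D10 the experiments differed as well, with a log2 change of 0.08 in the first and -2.20 in the second, whose D10 library is the one with the low fibroblast marker sum. Without that library, the POSTN log2 fold change of D10 was 0.82 against D0 and -0.53 against D4, in place of 0.32 and -1.02.

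Thrombospondin-1, encoded by THBS1 at chr15:39581079-39599466 on the plus strand, is a trimeric glycoprotein that binds CD47, CD36 and latent TGF-β. Its level was 1899 and 2757 CPM at D0, 1106 and 1868 CPM at D4, 1253 and 2210 CPM at D7, and 1157 and 2038 CPM at D10. Within each experiment the 3 later groups were below D0, but experiment 2 was higher than experiment 1 in every group, so that D7 and D10 overlapped with D0 while D4 lay just below it. The means were 2328 ± 606, 1487 ± 539, 1731 ± 677 and 1598 ± 623 CPM (SD, n = 2). The log2 fold change of THBS1 was -0.65 at D4 (SE 0.45, 95% interval -1.69 to 0.39), -0.43 at D7 (SE 0.45, -1.46 to 0.61) and -0.54 at D10 (SE 0.45, -1.58 to 0.49), with edgeR adjusted p of 1.00, 1.00 and 0.998. Leaving out 1 library moved these values to between -1.07 and -0.32 at D4, -0.89 and -0.07 at D7, and -1.01, without the second D10 library, and -0.18, without the first, at D10. Within experiment 1 the log2 change at D4, D7 and D10 was -0.78, -0.60 and -0.72, and within experiment 2 it was -0.56, -0.32 and -0.44. With the replicate block, edgeR gave log2 fold changes of -0.67, -0.46 and -0.58, each with an SE of 0.19. Their 95% intervals, -1.12 to -0.23, -0.90 to -0.02 and -1.02 to -0.14, left out 0. The adjusted p of this fit was 0.292, 0.448 and 0.153. DESeq2 with the replicate block, a fit added after the data were seen, called THBS1 lower at D4 (adjusted p of 0.00520) and at D10 (0.00807). Other genes cover 7.58% of its exon bases on the opposite strand, and whether counting used strand is not given in the sources used here.

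THBS2, a close relative of THBS1 at chr6:169215780-169254044 on the minus strand, and THBS3 at chr1:155195588-155209051 on the minus strand complete the thrombospondins among the 9 genes. THBS2 had 9 and 69 reads in the D0 libraries, 3 and 40 reads in D4, 7 and 26 reads in D7, and 9 and 59 reads in D10. In every group experiment 2 had several times the reads of experiment 1, and the log2 fold changes of -0.85, -1.21 and -0.12 had intervals wide enough to include a difference of either sign, at D4 from -3.79 to 2.09. Without the second D10 library, the THBS2 value at D10 was -2.02 in the fit without the replicate block. That fit sets experiment 1 at D10 against both experiments at D0. With the block and all 8 libraries, the 3 values were -0.92, -1.09 and -0.10. Their 95% intervals were -1.84 to 0.01, -2.06 to -0.13 and -0.99 to 0.78, and none passed the adjusted test. THBS3 was nearly flat, at 36.3 and 40.5 CPM at D0, 44.3 and 37.6 CPM at D4, 38.3 and 42.9 CPM at D7, and 31.6 and 37.5 CPM at D10. Its log2 fold change at D10 was -0.15 with a 95% interval of -0.63 to 0.33, the narrowest among the 8 genes, and -0.28 without the second D10 library. Of its exon bases, 25.4% lie under genes of the opposite strand, mainly MTX1.

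SPARC (osteonectin), at chr5:151661096-151687165 on the minus strand, binds collagen and is needed for its deposition. Its level was 4661 and 2745 CPM at D0, 3718 and 2936 CPM at D4, 3392 and 2428 CPM at D7, and 3595 and 1441 CPM at D10. The means, 3703 ± 1355, 3327 ± 553, 2910 ± 682 and 2518 ± 1523 CPM (SD, n = 2), were lower with each later medium, but every later group overlapped with D0. The log2 fold change of SPARC at D10 was -0.56 (SE 0.49, 95% interval -1.69 to 0.57, edgeR adjusted p of 0.998). It was -0.04 without the second D10 library, which had the lowest SPARC level of all.

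FN1, at chr2:215360440-215436172 on the minus strand, stood at 11252 and 13113 CPM at D0, 8117 and 15308 CPM at D4, 12438 and 18162 CPM at D7, and 13763 and 11155 CPM at D10. Its groups overlapped throughout, and the experiments went in opposite directions at D4 (log2 change of -0.47 and 0.22) and at D10 (0.29 and -0.23). The log2 fold change of FN1 at D10 was 0.03 with a 95% interval of -0.97 to 1.03. This interval takes in a 2-fold higher level and comes close to a 2-fold lower one. SPP1 (osteopontin), a secreted phosphoprotein of bone and of inflamed tissue at chr4:87975650-87983426 on the plus strand, was close to the limit of detection. It was counted 5 and 7, 6 and 7, 7 and 4, and 4 and 6 times at D0, D4, D7 and D10, and the sums of 12, 13, 11 and 10 had overlapping exact Poisson 95% intervals, the widest being 6.92 to 22.2. A difference in SPP1 between the groups was not detectable at this depth.

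Across the comparisons, edgeR called 0 of the 8 tested members at an adjusted p under 0.05 at D4, D7 and D10 against D0 and at D10 against D4. The same test called 0%, 0%, 0.29% and 0.00725% of all 13798 genes tested, or 0, 0, 40 and 1 genes. At an unadjusted p under 0.05 the members were 1, 2, 1 and 1, namely POSTN at D4, TNC and POSTN at D7, TNC at D10 and TNXB at D10 against D4, beside 2.96%, 4.34%, 7.94% and 5.7% of all genes. With the replicate block edgeR also called 0 members, beside 0.275%, 1.25%, 4.99% and 2.55% of all genes. At an unadjusted p under 0.05 that fit had 3, 4, 3 and 1 members, beside 1124, 1456, 2517 and 2523 of the 13798 genes. They were THBS1, TNXB and POSTN at D4, and THBS1, THBS2, TNC and POSTN at D7. At D10 they were THBS1, TNC and SPARC, and at D10 against D4 TNXB. DESeq2 called TNC at D10 and no member in the other 3 comparisons, beside 0.287%, 0.785%, 2.17% and 0.938% of its genes. DESeq2 with the replicate block called THBS1 at D4 and D10 and no other member, beside 1.55%, 2.37%, 6.66% and 5.21% of its genes. The median log2 fold change over the 8 members was -0.11, -0.13, -0.04 and 0.10, and over all genes it was within 0.01 of 0.

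Counts of direction were as mixed. At D4, 1 member was higher and 3 were lower in both experiments, beside 29.8% and 28.9% of all genes. At D7, 4 were higher and 4 lower (31.3% and 31% of all genes), at D10 2 were higher and 4 lower (31.1% and 32.3%), and at D10 against D4 4 were higher and 2 lower (27% and 28.1%). Both libraries lay above both of D0 for POSTN at D4, for TNC and POSTN at D7 and for TNC at D10, which 9.73%, 13.7% and 15% of all genes did. Both lay below for THBS1 and TNXB at D4 and for TNXB at D7, which 12.6% and 15.2% of all genes did, and for no member at D10 (16% of all genes). At D10 against D4, TNC and TNXB lay above and THBS3 below, beside 13.1% and 12.6% of all genes. Members are not replicates of a condition, and all comparisons with D0 share its 2 libraries.

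**Figure D2:**
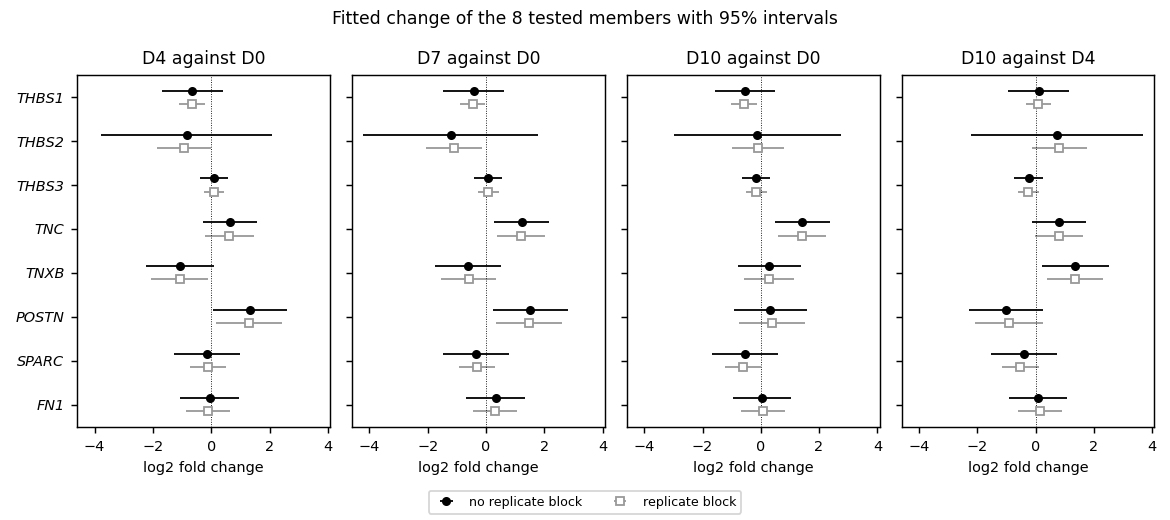
Fitted log2 fold change of the 8 tested genes in 4 comparisons, with 95% intervals, from edgeR without (filled circles) and with (open squares) the replicate block; the dotted line marks no difference. Intervals without the block leave out 0 for POSTN at D4, for TNC and POSTN at D7, for TNC at D10 and for TNXB at D10 against D4. Intervals with the block leave out 0 for the same genes in the same comparisons. They also do so for THBS1 at D4, D7 and D10, TNXB at D4, THBS2 at D7 and SPARC at D10. None of these passed the adjusted test.

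The experiments themselves differed in several members. With the experiment as a term in the edgeR fit, THBS2 was higher in experiment 2 by 2.68 on the log2 scale (adjusted p of 0.00122), THBS1 was higher by 0.73 (0.00580) and SPARC was lower, with a log2 difference of -0.73 (0.0212). Such a difference was called for 34.8% of all tested genes. It went the same way in all 4 groups for these 3 genes, from 1.63 to 3.02 for THBS2, from 0.54 to 0.82 for THBS1 and from -1.32 to -0.34 for SPARC. FN1 (0.35, adjusted p of 0.283), TNXB (0.40, 0.313), POSTN (0.30, 0.549), THBS3 (0.08) and TNC (0.03) did not pass this test. For TNC and POSTN the difference changed sign between groups, from -0.93 at D0 to 0.71 at D4 for TNC, and from 1.23 at D7 to -1.25 at D10 for POSTN. It also changed sign for FN1, from 0.92 at D4 to -0.30 at D10, and for THBS3, from -0.24 at D4 to 0.25 at D10. For TNXB it was 0.86 at D4 and -0.01 at D7. What set the experiments apart was not tested.

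**Figure D3:**
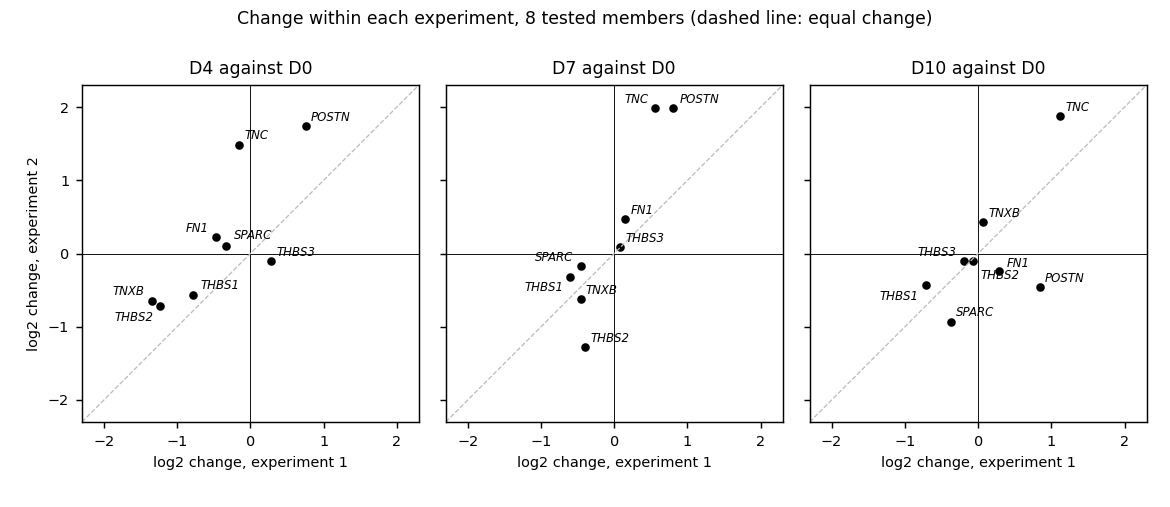
Log2 change within experiment 1 (horizontal) against experiment 2 (vertical) for the 8 tested genes, at D4, D7 and D10 against D0; the dashed line marks equal change. At D10 TNC sits at 1.12 and 1.88 in the upper right quadrant and THBS1 at -0.72 and -0.44 in the lower left, while POSTN has 0.84 in one experiment and -0.46 in the other.

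Other matricellular genes and the receptors of these proteins gave the surroundings of the 9 genes. Of 21 other matricellular genes fixed as a list, 14 were in the table and 9 were tested, and of 19 receptor genes, 18 were in the table and 15 were tested. Without the block edgeR called 0 of either list in any comparison, and at an unadjusted p under 0.05 it had 2 higher and 1 lower of the 9 and 1 higher and 1 lower of the 15 at D10, beside 7.94% of all genes. With the replicate block it called SMOC1, ITGA2 and SDC4 at D10, beside 4.99% of all genes. It also called ITGA2 at D7, beside 1.25% of all genes. At D10 against D4 it called SMOC1 higher (adjusted p of 0.0350) and SDC4 lower (0.0404), beside 2.55% of all genes. SMOC1, a calcium-binding relative of SPARC that antagonizes BMP signaling, was at 2.01 and 2.77 CPM at D0, 3.41 and 2.61 CPM at D4, 5.19 and 2.35 CPM at D7, and 15.04 and 83.9 CPM at D10. Both D10 libraries lay above all others, but they also differed from each other several-fold. Its log2 fold change at D10 was 4.36 (SE 0.81, edgeR adjusted p of 0.0810), with 0.0152 under the replicate block and 3.7e-08 by DESeq2. Without the second D10 library it was 2.65 (SE 0.51, edgeR adjusted p of 0.215, or 0.00131 with the block).

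ITGA2, the collagen-binding α2 integrin subunit, was at 189 and 199 CPM at D0, 265 and 509 CPM at D4, 577 and 704 CPM at D7, and 850 and 676 CPM at D10. All libraries of the later groups were above D0. Its log2 fold change was 1.72 at D7 (edgeR adjusted p of 0.307, or 0.0298 with the block) and 1.98 at D10 (SE 0.35, adjusted p of 0.0749, or 0.00573 with the block). SDC4, the fibronectin co-receptor syndecan-4, was at 384 and 468 CPM at D0, 312 and 392 CPM at D4, 236 and 306 CPM at D7, and 198 and 195 CPM at D10. Both D7 and both D10 libraries lay below both D0 libraries. Its log2 fold change at D10 was -1.11 (SE 0.25, edgeR adjusted p of 0.134, or 0.00748 with the block). DESeq2 without the block called ITGA2 at D7 (adjusted p of 0.000472) and at D10 (5.6e-06), and SDC4 at D10 (0.00591). Without the second D10 library, the D10 values were 2.13 for ITGA2 and -1.10 for SDC4.

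Read by family, the 4 tested thrombospondins, THBS4 among them, were lower in both experiments at D10, as were 32.3% of all genes. Their median log2 fold change was -0.35, after -0.75 at D4 and -0.76 at D7, and edgeR called 0 of them on any day. THBS4 was scarce, at 1.01 and 1.75 CPM at D0 and 0.158 and 0.631 CPM at D10. Within the experiments, THBS2 changed by only -0.07 and -0.11 at D10, and THBS3 by -0.20 and -0.11. In the fit without the block, the sign of THBS2 at D10 turned when 1 library was left out. The 4 tested genes of the SPARC family had a median of -0.48 at D10, with 1 higher and 3 lower in both experiments. Family medians were not computed without the second D10 library, where the fitted value was -0.04 for SPARC, -0.48 for FSTL1 and 2.65 for SMOC1. The 4 tested CCN genes had a median of 0.04, and the fasciclin-domain pair of POSTN and TGFBI 0.28. TGFBI, the relative of POSTN, was at 1934 and 1629 CPM at D0 and 2579 and 1621 CPM at D10, and these groups overlapped. Over the 15 receptors the median was 0.09, with 3 higher and 3 lower in both experiments, beside 31.1% and 32.3% of all genes.

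**Figure D4:**
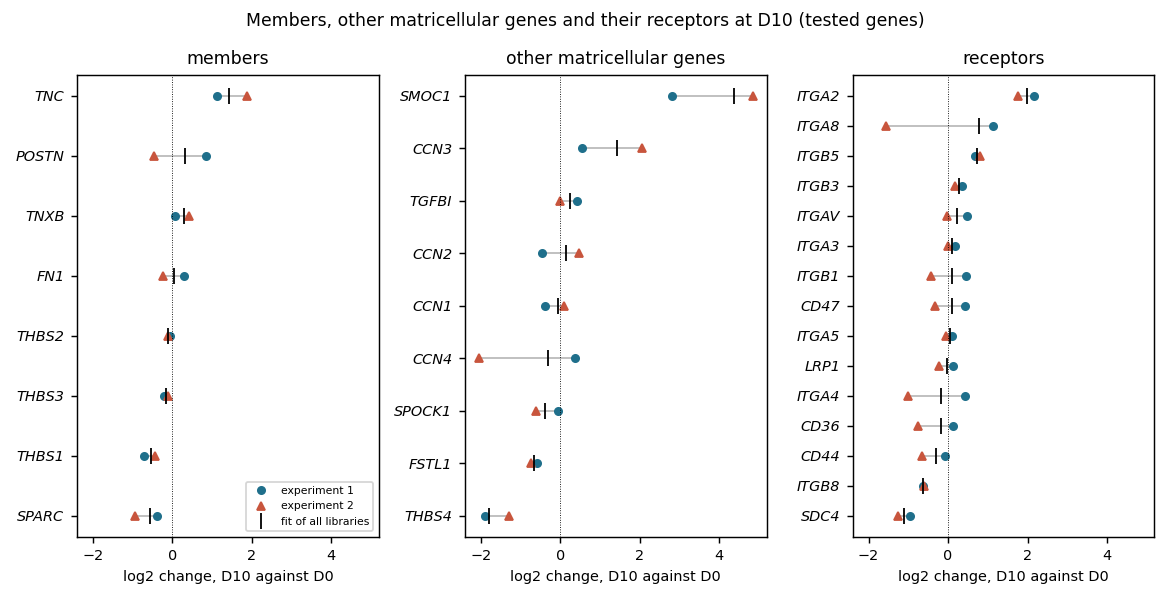
Log2 change at D10 against D0 of the tested members, other matricellular genes and receptors, with experiment 1 as circles, experiment 2 as triangles and the fit of all 8 libraries as a vertical tick; grey lines join the experiments. TNC, SMOC1 and ITGA2 have the highest fitted values of their panels, at 1.43, 4.36 and 1.98, and SPARC, THBS4 and SDC4 the lowest.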

How the data were processed

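RNA-seq of IMR90 fibroblasts was analysed in 8 libraries, grouped by the labels as D0, D4, D7 and D10 with 2 libraries each. Whole-number read counts per gene, deposited by the authors without normalization, came from stranded poly(A) libraries. The submitters' processing notes name STAR 2.5, DESeq2 and GRCh38; the counter, the strand setting and the annotation release are not given in the sources used here. A further 8 columns with normalized values were left aside, and a header that reads DO was taken as D0 of experiment 1. Of the 27696 identifiers, 27588 (99.6%) are in GENCODE 29, which gave positions and exon lengths, and promoters came from RefSeq (GRCh38.p14).

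Counts were filtered with filterByExpr, which left 13798 genes, scaled with TMM and fitted by group over all 8 libraries with edgeR 4.0.16 (glmQLFit and glmQLFTest, limma 3.58.1, R 4.3.3). Benjamini-Hochberg adjustment covered all genes tested, and calls were made at 0.05. CPM per kb divides CPM by the union of exons. A change within an experiment is the log2 CPM difference of 2 of its libraries, with a prior count of 2. Alternatives were DESeq2 1.42.0, other scalings, filters and thresholds, the compared groups only, a replicate block and leaving out each library. The test was run on simulated counts with known changes. The replicate numbers pair the libraries, since RNA came from 2 independent experiments and libraries with the same number deviated together from the means of their groups (Pearson's r of 0.418 to 0.722 over the 6 group pairs, computed across genes, which are not independent replicates). Adding the block lowered edgeR's common dispersion from 0.0792 to 0.0242.

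The 9 genes and all lists were chosen with earlier results of these data known. All 9 are named; of the other matricellular genes and receptors, those that edgeR called with or without the block are named, and others in the text were chosen after their values were seen. Genes with a pattern like a member's were to be named for called members only, so none are given. Figures were drawn with Python 3.11.15 and matplotlib 3.10.9.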

Additional observations from a re-analysis of the deposited data

How the results depend on the processing

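The fits kept the side of the threshold of the members in most settings. The exceptions were DESeq2, which called 1 member (TNC) at D10, as did edgeR without a filter (1), and DESeq2 with the replicate block. The latter, added after the data were seen, called 1 member (THBS1) at D4 and 1 at D10. Leaving out 1 library left a group with 1 library, in fits without the block, so it was no test of the calls. At D4 and D7 edgeR called 0 of all genes with all 8 libraries, so 0 members called there says little about the members. Over its 16 alternatives the adjusted p of TNC at D10 ran from 0.0169 with DESeq2 to 0.904, and that of THBS1 from 0.00807 with DESeq2 and the block to 1.

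The number of all genes called depended on the setting far more. At D4 (0 genes) it was 44 with DESeq2, 21 without a filter, 38 with the replicate block and 213 with DESeq2 and the block. At D7 (0) it was 112, 93, 172 and 351 in the same settings. At D10 (40) it was 379, 371, 688 and 950, and 25 with library totals, 20 with at least 10 counts in every library, 0 with the compared groups only and 2 at an adjusted p under 0.01; leaving out 1 library gave 0 (either D0 library) to 155 (the first D10 library). At D10 against D4 (1) it was 149, 147, 352 and 716 in the first settings, 6 with DESeq2's size factors and 6 with the compared groups only, and 0 to 83 when 1 library was left out. In edgeR the replicate block changed no call of a member.

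Leaving out 1 library turned the sign of 14 of the 32 fitted log2 fold changes of members, none of them called by edgeR, and no other setting turned any. At D4 these ran from -3.59 to 1.09 for THBS2, -0.034 to 0.21 for THBS3, -0.49 to 0.28 for SPARC and -0.58 to 0.33 for FN1. At D7 they ran from -2.42 to 0.73 for THBS2 and -0.68 to 0.082 for SPARC. At D10 they ran from -2.02 to 1.81 for THBS2, -0.0094 to 0.56 for TNXB, -0.42 to 0.82 for POSTN and -0.11 to 0.18 for FN1. At D10 against D4 they ran from -0.36 to 0.52 for THBS1, -1.17 to 3.47 for THBS2, -1.20 to 0.11 for SPARC and -0.29 to 0.61 for FN1. These fits had no block, so leaving out a library set 1 experiment against both. Differences between the experiments thus entered the ranges. For THBS2 that difference was 2.68, whereas its D10 changes within the experiments were -0.07 and -0.11. The signs of TNC and POSTN held at D4 and D7, with POSTN between 0.74 and 1.76 at D4 and 0.78 and 2.02 at D7. Depth limits THBS2, TNXB and SPP1, and the first 2 were not testable at a minimum of 10 counts in every library.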

Other observations

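Of the genes outside the named ones, DESeq2 with the replicate block also called FSTL1, a secreted relative of SPARC, lower at D4, D7 and D10 (adjusted p of 0.0461, 0.000146 and 0.00534), with edgeR log2 fold changes of -0.63, -0.87 and -0.66. It called CCN2, the connective tissue growth factor, lower at D7 (log2 fold change of -0.91, adjusted p of 0.0420) and CCN3 higher at D10 (1.43, adjusted p of 0.00893). FSTL1 was lower in both experiments on all 3 days and CCN3 was higher in both at D10, whereas CCN2 at D10 had log2 changes of -0.45 and 0.47 in the experiments. At D4, D7 and D10, DESeq2 with the replicate block called 1.55%, 2.37% and 6.66% of its genes. Without the second D10 library, the edgeR log2 fold change of CCN3 at D10 was 0.73 and that of FSTL1 was -0.48. With the block these values were 0.52 and -0.63. The edgeR fit without the block called 0 of these genes, and they were chosen after their values were seen.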
